A study of Rattus norvegicus with 18 samples.

Results

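Transcripts of 7 GABA-A receptor subunits were followed in rat hippocampus, taken from the left side in adult Sprague-Dawley males: Gabra2, Gabra3, Gabra4, Gabra5, Gabrb1, Gabrb2 and Gabrd. They were chosen by symbol, and 7 of the 17455 genes in the deposited count table carried those symbols. All 7 passed the filter on low counts that left 13338 genes to be tested. There were 18 libraries of polyadenylated RNA in 4 groups. In the kainic acid (KA) model, rats carried implanted electrodes and were injected systemically with kainic acid, which activates kainate-type glutamate receptors, in rising amounts until status epilepticus began. In the kindling (KI) model, rats were stimulated electrically through electrodes in the hippocampus until kindled. The seizure groups of both models carry the label 3 Class V, which the sources used here do not explain, and were collected 24 hours after the last seizure. There were 7 libraries of KA sham, 3 of KA 3 Class V, 4 of KI sham and 4 of KI 3 Class V, and what the sham treatment comprised is not given in the sources used here.

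GABA-A receptors are chloride channels built from 5 subunits, usually a pair of alpha subunits, a pair of beta subunits and a gamma or delta subunit. Receptors with alpha2 or alpha3 (Gabra2, Gabra3) are typical of synapses, where they carry brief inhibitory currents. Receptors with alpha5 (Gabra5), or with alpha4 and delta (Gabra4, Gabrd), lie largely outside synapses, respond to low ambient GABA and carry a steady current. In the hippocampus alpha5 is prominent in pyramidal cells and delta in dentate granule cells. The beta subunits (Gabrb1, Gabrb2) occur in both kinds of receptor and were counted with neither class.

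Library totals lay between 30925368 and 49943021 counts, with overlapping ranges in the 4 groups. Markers of dentate granule cells and of pyramidal cells were detected in every group, with 0 of the 6 and 0 of the 10 listed genes in the table at 0. Several libraries stood apart. The share of ribosomal RNA-like genes was 16.4% in KI sham 2, 16.3% in KI 3 Class V 1 and 9.67% in KA sham 4, against at most 2.0% in the others. A score of 88 ribosomal protein genes (mean log2 level relative to all libraries) spread over -0.48 to 0.97 among KA shams and -0.34 to 0.69 among KI shams, but only -0.49 to -0.19 among kindled libraries. Levels are given as CPM, counts scaled to the library total with TMM factors. The choroid plexus transcript Ttr reached 887 CPM in KI sham 4, and KA sham 3 had 572 CPM. Gene lengths were not used, so levels of different subunits are not compared with each other.

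The promoter sequences of 4 subunits are shown because each holds a motif searched for, the same one in both beta subunits and another in 2 of the 3 extrasynaptic subunits. Of the 7 subunits, 6 had an entry in the RefSeq promoter table for assembly GRCr8, and Gabra2 had none. In the 250 bases before the start of the gene, GC content was 76.4% for Gabra5, 74.0% for Gabrd and 71.6% for Gabra4. It was 49.2% for Gabrb1, 43.2% for Gabrb2 and 40.4% for Gabra3, against a median of 51.2% over 33469 promoters of the same length. The 3 extrasynaptic subunits thus had windows richer in GC than 93.6% to 97.4% of promoters, and Gabra3 was richer than 14.7%. Gabrb1 and Gabrb2 each held the palindrome CGCATGCG, the centre of the site bound by nuclear respiratory factor 1, which 1.47% of all promoters hold. It began 28 bases before the start of Gabrb1 and 94 bases before that of Gabrb2. Gabrd and Gabra4 each held the GC box GGGGCGG on the strand shown, 2 overlapping copies in Gabrd and 1 in Gabra4, and 18.8% of promoters hold it on either strand. Gabra5 and Gabra3 held none of the motifs searched for. The cyclic AMP response element TGACGTCA was in 0 of the 6 windows and in 1.59% of all promoters. Motifs were searched on both strands, and the first 2 were chosen after the windows had been read. The windows lie at chr14:36902894-36903143 on the minus strand for Gabrb1 and chr10:27439543-27439792 on the plus strand for Gabrb2. They lie at chr5:171252710-171252959 on the minus strand for Gabrd and chr14:36944497-36944746 on the plus strand for Gabra4. Each is printed 5′ to 3′ on the strand of its gene, with the palindrome or the GC box in capitals.
Gabrb1: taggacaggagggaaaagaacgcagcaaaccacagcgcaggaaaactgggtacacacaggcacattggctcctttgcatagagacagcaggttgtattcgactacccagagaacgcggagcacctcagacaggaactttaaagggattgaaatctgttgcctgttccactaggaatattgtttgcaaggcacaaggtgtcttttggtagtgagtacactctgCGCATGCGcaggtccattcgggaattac
Gabrb2: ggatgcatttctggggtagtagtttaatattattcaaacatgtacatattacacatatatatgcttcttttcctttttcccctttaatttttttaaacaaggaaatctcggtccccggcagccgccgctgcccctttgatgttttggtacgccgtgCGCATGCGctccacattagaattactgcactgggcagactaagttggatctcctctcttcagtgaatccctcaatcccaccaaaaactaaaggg
Gabrd: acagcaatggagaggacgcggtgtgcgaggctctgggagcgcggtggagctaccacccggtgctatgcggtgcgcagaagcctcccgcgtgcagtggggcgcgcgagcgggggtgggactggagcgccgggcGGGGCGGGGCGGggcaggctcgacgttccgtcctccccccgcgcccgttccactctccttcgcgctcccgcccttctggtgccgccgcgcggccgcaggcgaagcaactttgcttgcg
Gabra4: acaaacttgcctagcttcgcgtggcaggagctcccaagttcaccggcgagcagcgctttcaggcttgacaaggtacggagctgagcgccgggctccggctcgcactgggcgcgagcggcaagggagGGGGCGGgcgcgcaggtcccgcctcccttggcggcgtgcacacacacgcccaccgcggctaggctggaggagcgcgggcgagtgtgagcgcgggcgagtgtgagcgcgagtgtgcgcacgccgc

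In the kindling model Gabra2 rose and Gabrd fell, and the other 5 subunits did not pass the test. Gabra2 was 2.19-fold higher in KI 3 Class V than in KI sham, and Gabrd was 1.74-fold lower. Of the 7 subunits 2 were called, against 9.99% of all genes tested in this comparison by edgeR's quasi-likelihood test at an adjusted p under 0.05. There was 1 called higher and 1 lower, against 4.74% and 5.25% of all genes. At an unadjusted p under 0.05 there were 6 of the 7 and 35.4% of genes. The median log2 change of the 7 was 0.64, against -0.04 over all genes, and 5 of the 7 values were positive. These are bulk tissue values, in which fewer cells of a type and less RNA per cell cannot be told apart. The labels do not say whether each library is a separate animal, and p-values measure only the spread between these libraries, which may be technical.

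**Figure D1:**
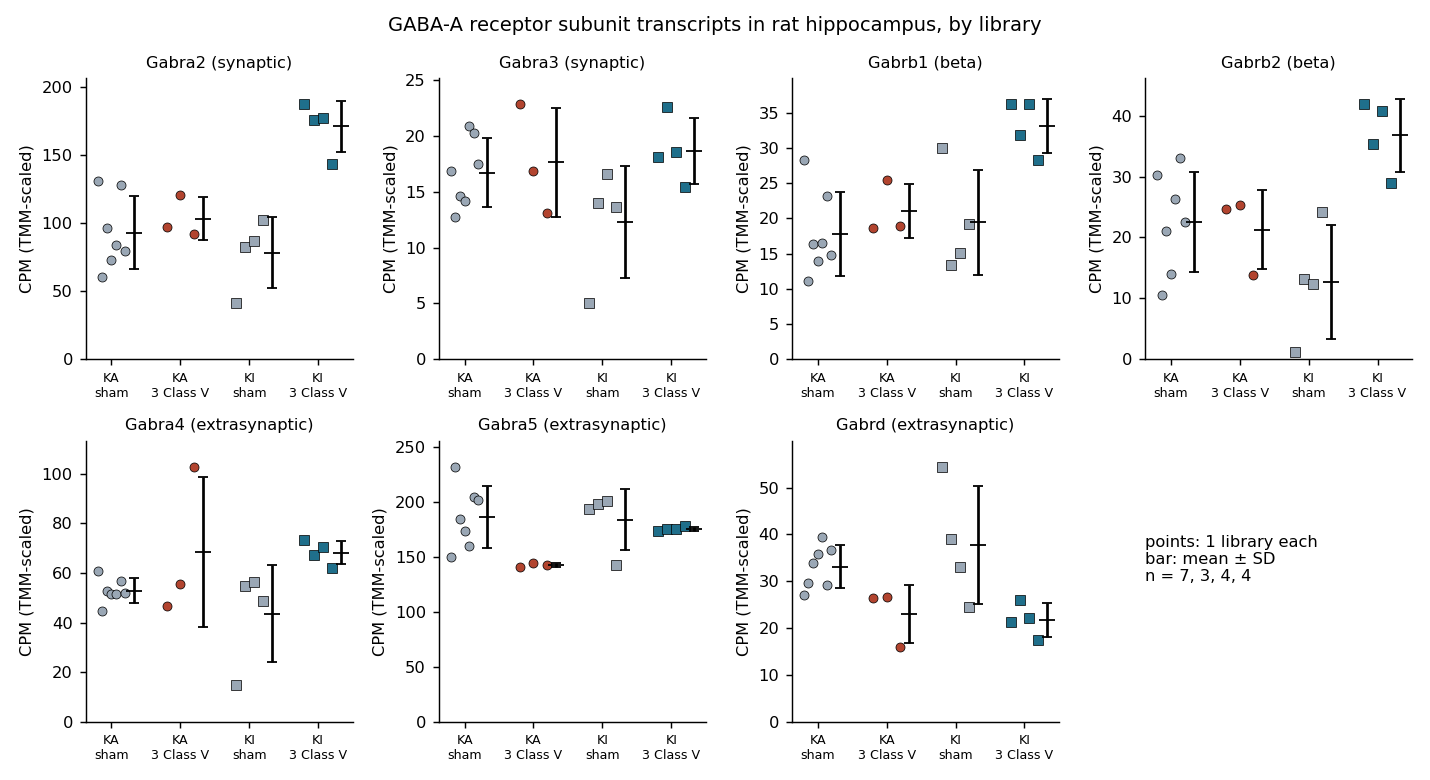
Level of each subunit transcript in CPM (vertical axis, starting at 0) in every library, by group (horizontal axis), with the mean and SD as a bar beside the points. Gabra2 in the 4 KI 3 Class V libraries lies above every other library, and KI sham 1 is the lowest point for Gabra2, Gabra3, Gabra4 and Gabrb2.

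Gabra2, an alpha subunit of synaptic receptors, stood at 41.3, 82.6, 86.5 and 102 CPM in KI sham 1 to 4 and at 188, 176, 177 and 144 CPM in KI 3 Class V 1 to 4. Every kindled library lay above every KI sham, a separation that 12.1% of all genes tested showed in that direction and 20.2% in either. The means were 78.1 ± 26.0 CPM (SD, n = 4) and 171 ± 18.95 CPM (SD, n = 4), a log2 change of 1.13 ± 0.26 (SE, edgeR adjusted p = 0.0275). The size of the change moved little when single libraries were left out, from 0.92 without KI sham 1 to 1.25 without KI sham 4. The call ended without KI 3 Class V 1, 2 or 3 (edgeR adjusted p = 0.092, 0.0635 and 0.0835) and without KI sham 3 (0.0521). After adjustment for the ribosomal protein score the change was 0.67 (edgeR adjusted p = 0.0603).

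Gabra3, the other synaptic alpha subunit in the set, was at 5.01, 14.03, 16.6 and 13.7 CPM in KI sham 1 to 4 and at 18.1, 22.6, 18.6 and 15.4 CPM in KI 3 Class V 1 to 4. KI sham 1 was far below the other shams, and the groups overlapped at KI sham 3. The log2 change was 0.60 ± 0.27 (SE, edgeR adjusted p = 0.128) and 0.34 without KI sham 1.

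Gabrd encodes the delta subunit that marks extrasynaptic receptors. Its level was 54.5, 39.0, 33.1 and 24.4 CPM in KI sham 1 to 4 and 21.3, 26.0, 22.1 and 17.4 CPM in KI 3 Class V 1 to 4. KI sham 1 was the highest of all 18 libraries, and the groups overlapped because KI sham 4 lay below KI 3 Class V 2. The mean fell from 37.7 ± 12.7 CPM (SD, n = 4) to 21.7 ± 3.55 CPM (SD, n = 4), a log2 change of -0.80 ± 0.22 (SE, edgeR adjusted p = 0.0367). Without KI sham 1 the change was -0.57 (edgeR adjusted p = 0.0782). The call also ended without KI sham 2 or 3 (0.0664 and 0.0673) and without KI 3 Class V 1, 2, 3 or 4 (0.106, 0.0666, 0.0959 and 0.0676). It ended as well when the kindling libraries were fitted alone (0.0683), and the change was -0.63 after adjustment for the ribosomal protein score (0.175).

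Gabra4, the usual alpha partner of delta, did not fall with it. It was at 14.7, 54.9, 56.2 and 48.8 CPM in KI sham 1 to 4 and at 73.1, 67.2, 70.5 and 62.0 CPM in KI 3 Class V 1 to 4. Every kindled library was above every sham, and 12.1% of all genes tested were likewise wholly above the KI shams. The log2 change of 0.64 ± 0.30 (SE) did not pass (edgeR adjusted p = 0.133), and it was 0.36 without KI sham 1. Gabra5, which is abundant in pyramidal cells, was at 193, 198, 200.4 and 142 CPM in KI sham 1 to 4 and at 173, 175, 176 and 178 CPM in KI 3 Class V 1 to 4. The kindled libraries lay close together inside the range of the shams, with a log2 change of -0.07 ± 0.13 (SE, edgeR adjusted p = 0.727) and a 95% interval from -0.35 to 0.22.

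Both beta subunits were higher in kindled than in sham libraries without passing the test. Gabrb2 was at 1.14, 13.2, 12.3 and 24.2 CPM in KI sham 1 to 4 and at 42.0, 35.4, 40.9 and 29.0 CPM in KI 3 Class V 1 to 4. The groups did not overlap, which 12.1% of all genes tested showed in that direction. The level in KI sham 1 rested on 33 counts against at least 343 in each of the other 17 libraries. The log2 change was 1.53 ± 0.53 (SE, edgeR adjusted p = 0.0625). It was 1.15 without KI sham 1, and it was called without KI sham 4 (2.01, edgeR adjusted p = 0.0163) or without KA sham 2 (1.53, 0.0467). Gabrb1 was at 30.1, 13.4, 15.1 and 19.2 CPM in KI sham 1 to 4 and at 36.2, 31.9, 36.3 and 28.3 CPM in KI 3 Class V 1 to 4. Here KI sham 1 was the highest sham and the sole one to overlap the kindled group. The log2 change of Gabrb1 was 0.77 ± 0.27 (SE, edgeR adjusted p = 0.0633). It was called at 1.06 without KI sham 1 (0.0242), at 0.76 without KA sham 1 (0.0433) and at 0.77 without KA sham 2 (0.0435).

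**Figure D2:**
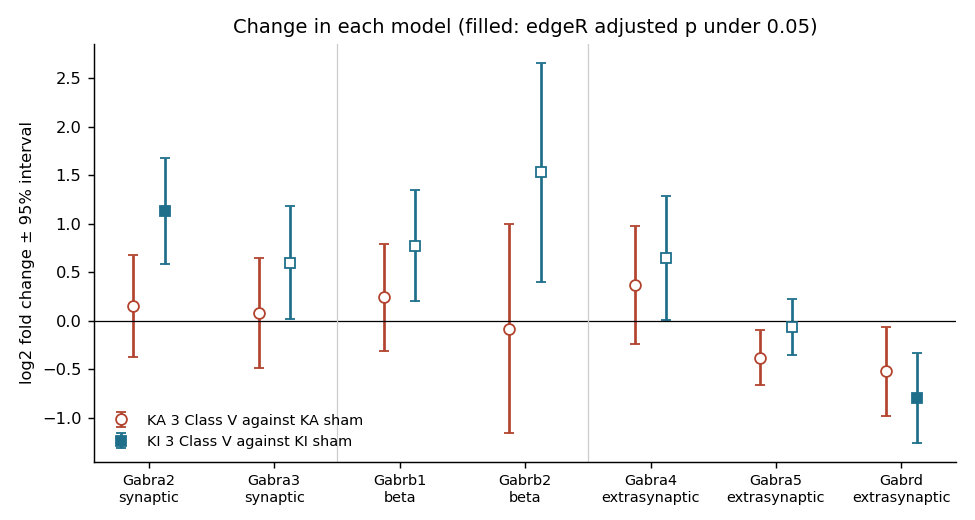
Log2 fold change of each subunit (horizontal axis, by class) in the KA model (circles) and the KI model (squares), with 95% intervals from the standard error and 14 residual degrees of freedom. Filled symbols mark an edgeR adjusted p under 0.05, which holds for Gabra2 and Gabrd in KI and for none of the 7 in KA.

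In the kainic acid model none of the 7 subunits passed the test. The lowest log2 changes were in the extrasynaptic subunits Gabrd and Gabra5 (-0.53 and -0.38), but the highest was extrasynaptic too, in Gabra4 (0.37). edgeR called 0.172% of all genes in this comparison. At an unadjusted p under 0.05 there were 2 of the 7, Gabra5 and Gabrd, and 9.93% of all genes. DESeq2 called 0 of the 7, beside 1.85% of all genes. limma-voom, run here with a quality weight for each library, called these 2 as lower, beside 5.44% of all genes. In both genes all 3 seizure libraries lay below all 7 shams, which 2.7% of genes tested showed in that direction and 5.65% in either.

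Gabra5 ranged in the KA shams from 150 to 232 CPM, with a median of 184, and stood at 141, 144 and 143 CPM in KA 3 Class V 1 to 3. The 3 seizure libraries were almost equal and lay just under KA sham 1, the lowest sham. The mean was 186 ± 28.4 CPM (SD, n = 7) in sham and 143 ± 1.55 CPM (SD, n = 3) in KA 3 Class V, a log2 change of -0.38 ± 0.13 (SE, edgeR adjusted p = 0.265, limma-voom adjusted p = 0.0242). Gabrd ranged in the KA shams from 27.1 to 39.5 CPM, with a median of 33.99, and stood at 26.4, 26.7 and 15.9 CPM in KA 3 Class V 1 to 3. KA 3 Class V 3 was well below the other libraries, while the other 2 lay just under KA sham 1. The log2 change of Gabrd was -0.53 ± 0.21 (SE, edgeR adjusted p = 0.379, limma-voom adjusted p = 0.0485), and -0.33 without KA 3 Class V 3.

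Gabra4 ranged from 44.8 to 60.9 CPM in the KA shams, with a median of 52.0, and stood at 46.6, 55.7 and 103 CPM in KA 3 Class V 1 to 3. KA 3 Class V 3 thus had the highest Gabra4 and the lowest Gabrd of all 18 libraries, while the other 2 were within the range of the shams. The ratio of Gabra4 to Gabrd counts was 6.45 in that library, 1.77 and 2.08 in the other 2, and 1.30 to 2.25 in the KA shams. The log2 change of Gabra4 was 0.37 ± 0.28 (SE, edgeR adjusted p = 0.694) and turned to -0.06 without KA 3 Class V 3.

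The synaptic and beta subunits overlapped between KA sham and KA 3 Class V. Gabra2 ranged from 60.3 to 131 CPM in the shams, with a median of 83.9, and was at 97.0, 121 and 91.9 CPM in KA 3 Class V. Its log2 change was 0.15 ± 0.25 (SE, edgeR adjusted p = 0.884), with a 95% interval from -0.38 to 0.68. Gabra3 ranged from 12.7 to 20.9 CPM in the shams, with a median of 16.9, and was at 22.9, 16.9 and 13.1 CPM in KA 3 Class V. Gabrb1 ranged from 11.1 to 28.3 CPM in the shams, with a median of 16.4, and was at 18.7, 25.5 and 18.9 CPM in KA 3 Class V. Gabrb2 ranged from 10.5 to 32.98 CPM in the shams, with a median of 22.5, and was at 24.6, 25.4 and 13.8 CPM in KA 3 Class V. The log2 changes of these 3 were 0.08 ± 0.26, 0.24 ± 0.26 and -0.08 ± 0.50 (SE, edgeR adjusted p = 0.956, 0.799 and 0.976). The sign of Gabrb2 and Gabra3 turned when single libraries were left out.

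The difference between the models was tested directly, and 0 of the 7 subunits passed by edgeR, which called 3.8% of all genes in this test. DESeq2 also called 0 of the 7, beside 8.09% of all genes. limma-voom called Gabra2, Gabrb1 and Gabrb2, beside 35.8% of all genes. By edgeR 2 of the 7 had an unadjusted p under 0.05, against 20.5% of genes. The KA change of Gabra2 minus its KI change was -0.98 ± 0.36 in log2 (SE, edgeR adjusted p = 0.137, limma-voom adjusted p = 0.00247), with a 95% interval from -1.75 to -0.21. For Gabrb2 it was -1.61 ± 0.74 (SE, edgeR adjusted p = 0.227). For Gabrd, lower than sham in both models, it was 0.27 ± 0.30 (SE, edgeR adjusted p = 0.646), with an interval from -0.37 to 0.91. Between the shams of the models none of the 7 passed, at edgeR adjusted p from 0.57 to 0.961. There were 0 at an unadjusted p under 0.05 (8.63% of genes), and 0 were called by DESeq2 or limma-voom. The largest sham difference was in Gabrb2, higher in KA sham by 0.82 ± 0.47 in log2 (SE), with a 95% interval from -0.19 to 1.84. In that comparison edgeR called 0.0075% of all genes, DESeq2 0.0642% and limma-voom 3.08%.

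Across the 4 groups, mean Gabra2 was highest in KI 3 Class V (171 CPM), followed by KA 3 Class V (103 CPM), KA sham (93.0 CPM) and KI sham (78.1 CPM), and the lower 3 groups overlapped each other. Gabrb1 and Gabrb2 were likewise highest in KI 3 Class V, at 33.2 and 36.8 CPM, with the other 3 means between 17.8 and 21.02 CPM and between 12.7 and 22.5 CPM. Mean Gabrd ran in the opposite order, from 37.7 CPM in KI sham through 33.1 CPM in KA sham to 23.01 CPM in KA 3 Class V and 21.7 CPM in KI 3 Class V. Each sham group overlapped the other, and so did the seizure groups. Mean Gabra3 was 18.7 CPM in KI 3 Class V, 17.6 CPM in KA 3 Class V, 16.7 CPM in KA sham and 12.3 CPM in KI sham, and every pair of neighbours in that order overlapped. Gabra4 was at 68.4 CPM in KA 3 Class V, where its SD was 30.2, and at 68.2 ± 4.79 CPM (SD, n = 4) in KI 3 Class V, against 52.9 and 43.6 CPM in the shams. Gabra5 was at 186 CPM in KA sham, 184 CPM in KI sham, 175 CPM in KI 3 Class V and 143 CPM in KA 3 Class V. Its coefficient of variation was 15.3% and 15.1% in the shams and 1.09% and 1.07% in the seizure groups.

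Synaptic and extrasynaptic subunits were then set against each other within each library, a ratio that the scaling of libraries does not change apart from the small prior count. The measure was the mean log2 CPM of Gabra2 and Gabra3 minus that of Gabra4, Gabra5 and Gabrd, with no test, since the members were chosen with earlier results in view. It was -1.89, -1.14, -0.93 and -0.57 in KI sham 1 to 4 and -0.15, -0.10, -0.18 and -0.29 in KI 3 Class V 1 to 4. All 4 kindled libraries lay above the 4 KI shams, and above the 7 KA shams, which ran from -1.28 to -0.42. In KA 3 Class V it was -0.24, -0.40 and -0.83, overlapping the KA shams. The group means were -1.13 ± 0.56 (SD, n = 4) and -0.18 ± 0.08 (SD, n = 4) in KI, and -0.83 ± 0.32 (SD, n = 7) and -0.49 ± 0.30 (SD, n = 3) in KA. The KI difference of 0.95 was 0.71 with Gabra2 left out of its class and 0.58 with Gabrd left out. Both subunits called in kindling are part of the measure, so in KI it partly restates those calls.

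The count ratio of Gabra2 to Gabrd sets against each other the 2 subunits called in kindling, so in KI it restates those calls library by library and adds no support. It was 0.757, 2.12, 2.61 and 4.19 in KI sham 1 to 4 and 8.81, 6.76, 7.997 and 8.28 in KI 3 Class V 1 to 4. In the KA shams it ran from 2.03 to 4.82, with a median of 2.16, and in KA 3 Class V it was 3.68, 4.53 and 5.77. The extrasynaptic class was not uniform in kindling: Gabrd was called lower with overlapping groups, and Gabra5 stayed inside the sham range. Gabra4 was above every sham but did not pass the test. The ratio of Gabra4 to Gabrd was 0.269, 1.41, 1.70 and 2.002 in KI sham 1 to 4 and 3.43, 2.58, 3.18 and 3.57 in KI 3 Class V 1 to 4.

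**Figure D3:**
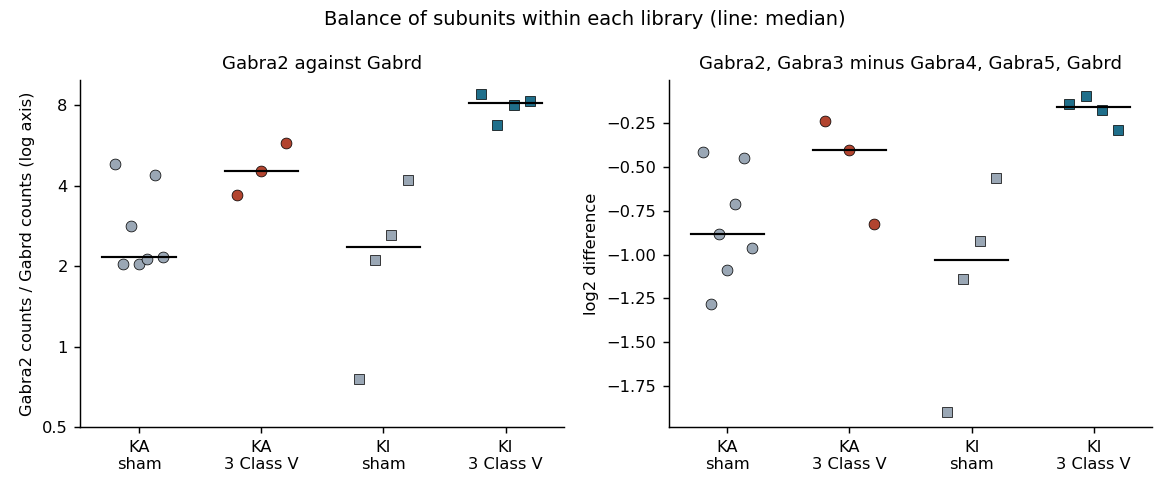
Left, counts of Gabra2 divided by counts of Gabrd in each library (log axis). Right, the mean log2 level of Gabra2 and Gabra3 minus that of Gabra4, Gabra5 and Gabrd. Points are libraries by group and lines are medians. The left panel pairs the 2 subunits called in kindling, so the high position of KI 3 Class V there (6.76 to 8.81) restates those calls.

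Levels of some subunits also varied among shams together with the ribosomal protein score. Among the 7 KA shams, Gabra2 was highest at 131 and 128 CPM in KA sham 1 and 6, the libraries with the lowest scores (-0.40 and -0.48). It was lowest at 60.3, 72.9 and 79.3 CPM in KA sham 2, 4 and 7, the libraries with the highest scores (0.97, 0.44 and 0.46). Gabrb2 followed the same pattern at the ends, with 30.3 and 32.98 CPM in KA sham 1 and 6 and 10.5 CPM in KA sham 2. Gabra5 did not, with 150 and 204 CPM in KA sham 1 and 6 and 232 CPM in KA sham 2. Gabrb1 was at 28.3, 23.1 and 11.1 CPM in KA sham 1, 6 and 2. It was at 30.1 CPM in KI sham 1, which had the highest score of the KI shams (0.69). The 4 kindled libraries had low scores, and 3 of the 4 KI shams had scores of 0.24 to 0.69, so the score moved with the kindling comparison. In the 3 shams of either model with scores of -0.34 or lower (KA sham 1, KA sham 6 and KI sham 4), Gabra2 was at 131, 128 and 102 CPM, against 144 to 188 CPM in KI 3 Class V. In these 3 shams Gabrd was at 27.1, 29.2 and 24.4 CPM, against 17.4 to 26.0 CPM in KI 3 Class V. KA sham 5, whose score of -0.23 also lay within the kindled range, had 83.9 CPM of Gabra2 and 39.5 CPM of Gabrd. With the score as a covariate the kindling change was 0.67 for Gabra2, 0.86 for Gabrb2, 0.45 for Gabrb1, 0.46 for Gabra4, 0.31 for Gabra3, 0.12 for Gabra5 and -0.63 for Gabrd, and edgeR called 0 of the 7, with 2 at an unadjusted p under 0.05. That fit called 0.787% of all genes, with 20.3% at an unadjusted p under 0.05. Without the covariate limma-voom called 5 of the 7, beside 55.2% of all genes, and DESeq2 4, beside 21.2%.

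**Figure D4:**
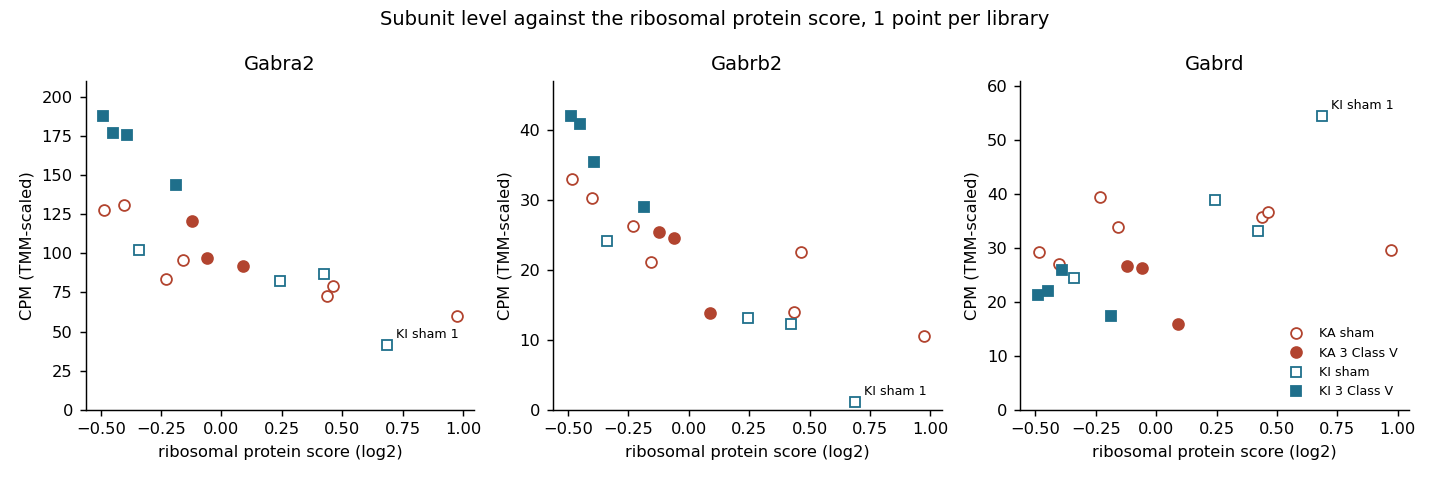
Level of Gabra2, Gabrb2 and Gabrd in CPM (vertical axes, starting at 0) against the ribosomal protein score of the library (horizontal axis, log2), with open symbols for shams and filled symbols for 3 Class V. The highest score, in KA sham 2, goes with 60.3 CPM of Gabra2 and 10.5 CPM of Gabrb2, while KA sham 7 has 22.5 CPM of Gabrb2 at a score of 0.46, and KI sham 1 has 1.14 CPM of Gabrb2 and 54.5 CPM of Gabrd.

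Markers of several other cell types moved with the kindling comparison too. In that comparison edgeR called 4.74% of all genes higher and 5.25% lower, with 35.4% at an unadjusted p under 0.05. In KA it called 0.172% of all genes in either direction, with 9.93% at an unadjusted p under 0.05. Summed levels of 10 neuronal markers were 5995 to 6935 CPM in the KI shams and 7994 to 9401 CPM in KI 3 Class V, with 2 of 10 called higher and 0 at 0. Summed levels of 14 microglial markers were 1255 to 2536 CPM in the KI shams and 851 to 878 CPM in KI 3 Class V, with 10 of 14 called lower and 0 at 0. For 9 interneuron markers the sums were 586 to 933 and 1096 to 1206 CPM, with 1 of 9 called higher. That marker was Gad2, which also belongs to the list of GABA synthesis, transport and breakdown genes below. For dentate granule cells, in which delta is prominent, the sums of 6 markers overlapped at 261 to 340 and 221 to 323 CPM, and 1 of the 4 tested, C1ql2, fell (log2 change -1.23 ± 0.33, SE, edgeR adjusted p = 0.037). Of those 4, 2 were positive and 2 negative, with a median of 0.14. For 10 pyramidal cell markers the sums overlapped at 1220 to 2117 and 1409 to 1981 CPM, with 0 of 10 called and 0 at an unadjusted p under 0.05. Oligodendrocyte sums did not overlap, at 15868 to 21318 CPM in the KI shams and 10003 to 14023 CPM in KI 3 Class V, with 2 of 9 called lower and 8 negative. Astrocyte sums in KI overlapped, at 6305 to 10073 CPM in sham and 7567 to 9169 CPM in 3 Class V. Of those 9 markers 1 was called higher, 4 were positive and 5 negative, with a median of -0.08. Of 6 thalamus markers 2 were called lower (median -0.74), and of 7 choroid plexus markers 0 were called, 6 had an unadjusted p under 0.05 and all 7 were negative (median -2.05). In KA the neuronal sums overlapped (5048 to 8888 and 6395 to 6661 CPM), while microglial sums were 872 to 2113 CPM in sham and 1659 to 2181 CPM in 3 Class V. Sums of 10 pyramidal cell markers were 1347 to 1830 CPM in KA sham and 1069 to 1401 CPM in KA 3 Class V, with 0 of 10 called and 4 at an unadjusted p under 0.05. Astrocyte sums were 5982 to 12171 and 12823 to 14748 CPM in KA, where Gfap, 1 of 9, rose, while 5 were positive and 4 negative with a median of 0.09. All 9 oligodendrocyte markers were negative in KA, with 0 called and 6 at an unadjusted p under 0.05, and the sums overlapped at 12587 to 35053 and 13829 to 14247 CPM. In KA 3 Class V 3, the library with high Gabra4, the interneuron sum was 1551 CPM against 558 to 1245 CPM in the KA shams. The part of these markers in the subunit values was not tested.

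Other genes of GABA signalling were read from lists. Of 18 anchoring and trafficking genes reported here 3 rose in kindling by edgeR and 15 did not pass, beside 4.74% of all genes higher. These were Shisa7, an auxiliary subunit of the receptor (1.01), the adhesion gene Slitrk3 (1.14) and Mdga1, a regulator of synaptic adhesion (0.93), with edgeR adjusted p from 0.0346 to 0.0378. Gphn, which encodes the synaptic scaffold gephyrin, stood at 0.32 ± 0.12 (SE, edgeR adjusted p = 0.0797).

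Of 9 genes of GABA synthesis, transport and breakdown, the synthesis enzyme Gad2 rose by 1.58 ± 0.42 in log2 (SE, edgeR adjusted p = 0.0358). The transporter Slc6a12, at under 1 CPM in every library, fell by 1.69 ± 0.49 (SE, edgeR adjusted p = 0.0425), and 7 did not pass. Of 4 GABA-B receptor genes Kctd16, an auxiliary subunit, rose by 1.19 ± 0.32 (SE, edgeR adjusted p = 0.0358). Neither chloride cotransporter passed, with Slc12a5, the neuronal exporter KCC2, at 0.64 ± 0.22 (SE, edgeR adjusted p = 0.0605). Over the 33 genes of these lists edgeR called 6, DESeq2 16 and limma-voom 22, beside 9.99%, 21.2% and 55.2% of all genes. All 6 of the edgeR calls ended without KI 3 Class V 1, 2 or 3 or without KI sham 3. They also ended after adjustment for the ribosomal protein score, with the replicate block, and without the 3 libraries rich in ribosomal RNA-like counts. Beyond these, 3 ended when KI sham 1 was left out, 5 when KI sham 2 was and 2 when KI 3 Class V 4 was. When each model was fitted alone 2 ended. That of Slc6a12 ended without KI sham 4, without KA sham 3, and without KI sham 3 and 4 together. The last of these gave the highest edgeR adjusted p over all alternatives, 0.252.

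In KA 0 of these 33 genes passed by edgeR or DESeq2 and 1 by limma-voom, beside 0.172%, 1.85% and 5.44% of all genes. The smallest p within the lists belonged to Iqsec3, Slc6a12, Kctd8 and Slc12a2, with log2 changes of -0.41 ± 0.20, 0.87 ± 0.40, -0.52 ± 0.33 and 0.31 ± 0.22 (SE). At an unadjusted p under 0.05 edgeR had 1 of the 33, Slc6a12, against 9.93% of all genes. Between the models 1 of the 33 differed by edgeR, again Slc6a12, by 2.56 ± 0.63 (SE, edgeR adjusted p = 0.0335), beside 3.8% of all genes. DESeq2 called 5 of the 33 and limma-voom 20, beside 8.09% and 35.8% of all genes. The edgeR call ended without KI sham 3 or 4, KI 3 Class V 1, 2 or 3, KA sham 3, 6 or 7 or KA 3 Class V 2 or 3. It also ended with the replicate block (0.0952), and the difference was 1.73 without KI sham 3 and 4 together (0.107).

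GABA-A subunit genes lie in clusters in the rat genome, and the order of genes on GRCr8 places several of the members beside each other or beside other subunits. In the cluster of Gabrb1, Gabra4, Gabra2 and Gabrg1, the kindling log2 changes were 0.77, 0.64, 1.13 and 0.44, all positive. Gabrg3, in the cluster of Gabra5, was at 1.07 against -0.07 for Gabra5. On the X chromosome Gabre was at 1.01 and Gabra3 at 0.60, with Gabrq too low to be tested. The values of Gabrg1, Gabrg3 and Gabre had SE of 0.29, 0.46 and 0.83 and did not pass (edgeR adjusted p = 0.27, 0.111 and 0.378). In KA the same genes lay between -0.38 and 0.37.

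The genes most like each subunit over the 18 libraries were taken by Pearson r of log2 CPM among 11216 candidates, as a description of libraries that share 4 groups and 1 scaling. For Gabra2 these included Ate1, an arginyltransferase gene (r = 0.98), and the active zone gene Erc2 (0.98). For Gabrb2 they were the palmitoyltransferase gene Zdhhc17, Lpgat1 and Zfp483 (each 0.99). For Gabra3 they were the kinase gene Camk2g, the potassium channel partner Dpp10 and the calcium channel gene Cacnb4 (0.95, 0.95 and 0.94). For Gabrb1 they were the corepressor gene Tle1, the glutamate receptor gene Gria2 and Pgm2l1 (0.96, 0.96 and 0.95). For Gabra4 they were Jade3, the importin gene Kpna4 and the kinase gene Jak2 (0.96, 0.96 and 0.94). For Gabra5 they were Fgf13, Triqk and Mtmr14 (0.95, 0.90 and 0.88), and for Gabrd the ceramide synthase gene Cers5, Fxyd7 and Lhfpl5 (0.90, 0.88 and 0.87). Without KI sham 1 these r were 0.82 to 0.89 for Gabra3 and 0.85 to 0.86 for Gabra4, and 0.97 to 0.98 for Gabrb2.

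**Figure D5:**
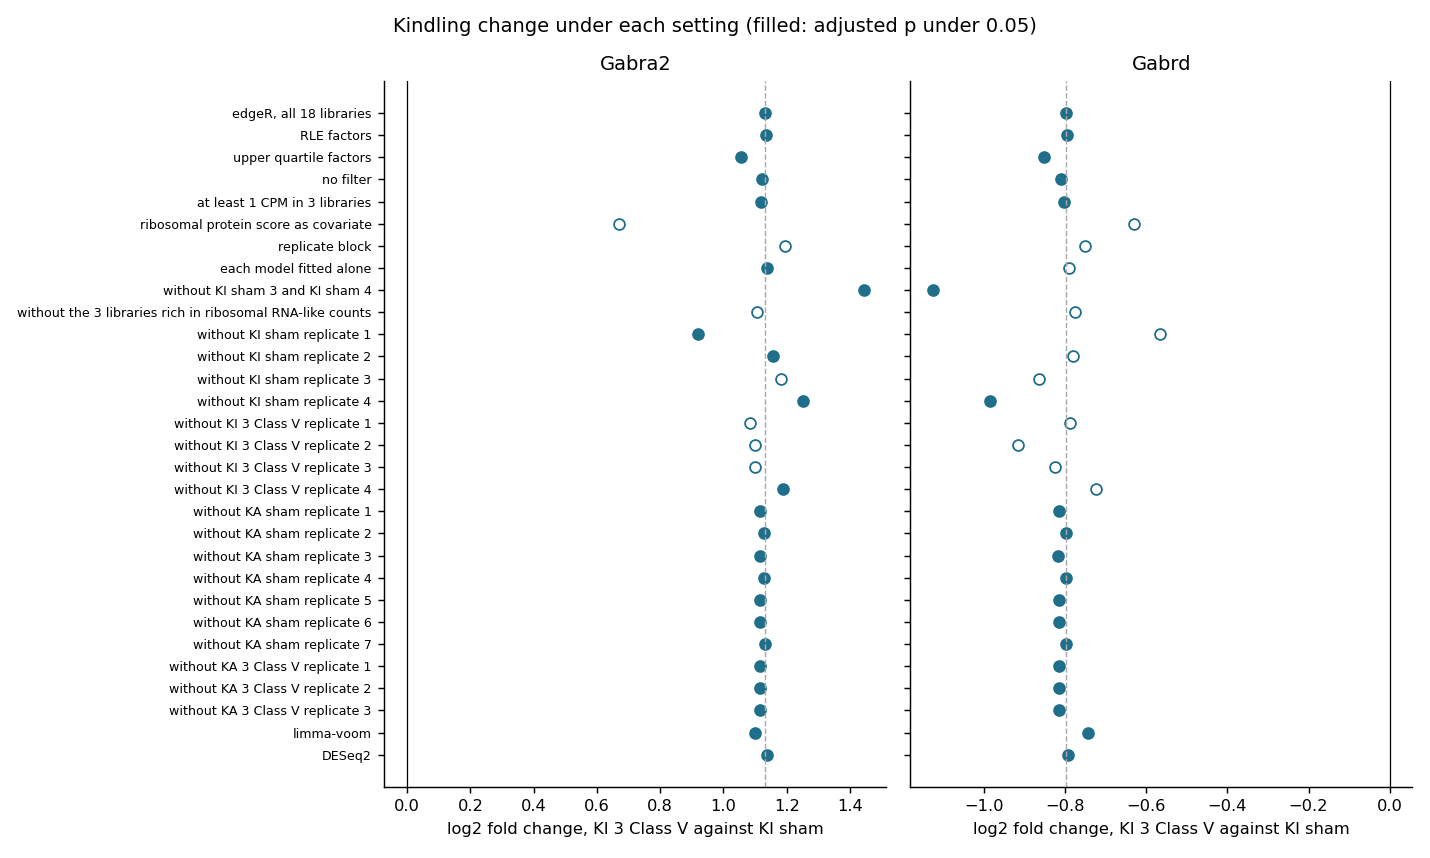
Log2 change of Gabra2 and Gabrd in KI 3 Class V against KI sham (horizontal axes) under each setting (rows), with filled points at an adjusted p under 0.05 and the dashed line at the value from all 18 libraries. Gabra2 stays between 0.67 and 1.44 and Gabrd between -1.13 and -0.57, with 22 and 18 of the 29 alternatives called. Alternatives that leave out a KA library remove no library of this comparison, and both genes stay called in all of them. With a single KI library left out, Gabrd stays called only without KI sham 4. Gabra2 then stays called only without KI sham 1, 2 or 4 or without KI 3 Class V 4.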

How the data were processed

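RNA was measured by single-end sequencing of polyadenylated RNA from 18 rat hippocampus samples. Counts of reads per gene symbol were deposited by the authors without normalization, 1 column per library. FastQC, Trimmomatic, HISAT2, featureCounts and DESeq2 are named, with build rn6, per the submitters' processing notes; the sources used here give no versions, annotation, strand setting or treatment of reads with several matches, so reads shared by overlapping or similar genes may be split. Total counts per library were 30925368 to 49943021, and all 36 pairs of replicates differed beyond sampling noise (chi-square per degree of freedom 19.8 or more).

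Groups were taken from the labels. Counts were tested in R 4.3.3 with edgeR 4.0.16 (TMM factors, filterByExpr, robust quasi-likelihood fit of 4 group means, 14 residual degrees of freedom), with Benjamini-Hochberg adjustment over the 13338 genes tested and a threshold of 0.05. Levels are CPM, with a prior count of 2 on the log2 scale. Non-overlap means that every library of a group lay beyond every library of the other. The alternatives were RLE and upper quartile factors, 2 other filters, the ribosomal protein score as a covariate, a replicate block, each model alone, libraries left out, limma-voom (limma 3.58.1) and DESeq2 1.42.0. limma-voom was run with quality weights, which give less weight to libraries that deviate more. The fitting steps were tested on simulated data.

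The members, gene lists and alternatives were chosen with earlier results of these data known. Named genes were the members, up to 3 genes most like each (mean log2 CPM of at least 1), and listed genes that were called, with up to 3 of each list by smallest p; Gphn and the cluster neighbours were added after their values were seen. Some listed genes are not reported here. Promoter sequences are those of RefSeq on GRCr8, matched by symbol for 6 of 7 members, and only the order of genes was taken from its annotation.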

Additional observations from a re-analysis of the deposited data

Results flagged for a closer look

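Gabra5 in KI sham 4 stood at 142 CPM, while the other 3 KI shams were at 193, 198 and 200.4 CPM. The gap to the nearest sham was 0.88 of the range of the group, above Dixon's 95% critical value for 4 samples. Of 21 groups of subunit levels examined this was the 1 in which a library stood apart, and chance alone gives that in about 5% of groups. The same library had 887 CPM of the choroid plexus gene Ttr and the lowest Gabrd of the KI shams (24.4 CPM); the part of either in the Gabra5 level was not tested. Without KI sham 4 the kindling change of Gabra5 was -0.20 on the log2 scale.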

How the results depend on the processing

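How many genes were called depended strongly on the setting, while the direction of Gabra2, Gabrd, Gabrb1 and Gabrb2 in kindling was the same in all 29 alternatives. Alternatives that left out a KA library removed no kindling library, so they say little about that direction. For KI the 1332 genes became 105 with the ribosomal protein score, 0 with the replicate block, 759 with each model alone, 3740 without KI sham 3 and 4, 17 without the 3 libraries rich in ribosomal RNA-like counts, 7359 with limma-voom and 2915 with DESeq2. The 2 subunits called in KI became 0, 0, 1, 4, 0, 5 and 4 under these settings, and 0 to 4 when single libraries were left out, with 9 genes (without KI 3 Class V 1) to 4297 genes (without KI sham 4). For KA the 23 genes became 205 with the score, 3 with the block, 69 without KI sham 3 and 4, 725 with limma-voom and 255 with DESeq2, and 9 to 110 without single libraries; limma-voom called 2 of the 7 subunits. For the difference between models the 507 genes became 1025 with the score, 11 with the block, 4778 with limma-voom and 1113 with DESeq2, and 56 to 897 without single libraries; limma-voom called 3 subunits. Between shams the 1 gene became 6 with the score, 625 without KI sham 3 and 4, 0 without the libraries rich in ribosomal RNA-like counts, 411 with limma-voom and 10 with DESeq2, and 1 to 3 without single libraries.

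The sign turned in KA for Gabrb2 (0.11 with the replicate block, 0.014 with limma-voom, -0.24 to 0.14 without single libraries), Gabra3 (-0.16 to 0.24) and Gabra4 (-0.059 to 0.58), and in KI for Gabra5 (0.12 with the score). It turned for Gabra4 in the difference between models (-0.68 to 0.015), and between shams for Gabra5 (-0.092 without KI sham 3 and 4, -0.13 with limma-voom, -0.11 to 0.059), Gabra4 (-0.011 to 0.42), Gabrd (-0.37 to 0.043) and Gabrb1 (0.24 with limma-voom, -0.29 to 0.16). Without single libraries the kindling difference in the synaptic minus extrasynaptic measure stayed between 0.70 and 1.14 and that in KA between 0.21 and 0.51. The causes were not tested. Correlations of deviations ran from -0.17 to 0.01 for same-numbered libraries and from -0.24 to 0.32 for the other pairs. With so few libraries per group, these values cannot decide whether the numbers pair libraries. With the replicate block Gabra2 was at 1.19 (edgeR adjusted p = 0.13) and Gabrd at -0.75 (0.138) in KI. The lowest count of a subunit was 33, for Gabrb2 in KI sham 1, a library of 30925368 counts.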
